A study of Mus musculus with 6 samples.

Results

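The Gimap genes encode GTPases of the immunity-associated protein family. Here they are the 8 mouse genes Gimap1, Gimap3, Gimap4, Gimap5, Gimap6, Gimap7, Gimap8 and Gimap9, of 18193 genes measured. They were found as every probe set that the platform annotation assigns to 1 of these genes and to no other gene, which gave 11 of 34945 probe sets with a single gene symbol. Gimap4, Gimap6 and Gimap7 had 2 probe sets each and the other genes had 1.

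The study compared CD4+ T cells with a memory phenotype from 2 sites in mice at the acute clinical stage of experimental autoimmune encephalomyelitis (EAE), in which an immune response against myelin inflames the spinal cord. The spinal cord group (n = 3 arrays) and the group from the draining inguinal lymph node (n = 3 arrays) both came from female C57BL/6 mice of 8 to 10 weeks whose disease was induced with the MOG35-55 peptide. No untreated group is analysed here, so both groups carry the disease. Per the labels, the arrays are numbered 1 to 3 within each tissue, and neither what a number shares nor how many animals stand behind an array is given, so the p-values cover the spread among these arrays alone, part of which may be technical.

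Gimap proteins share a GTP-binding domain related to that of plant immunity proteins and sit on the membranes of the endoplasmic reticulum, Golgi, mitochondria or lysosomes, depending on the member. They are made mainly in lymphocytes, and their genes lie side by side in a single cluster. Loss of Gimap5, on the lysosome, shortens the life of resting T cells and gives lymphopenia in mice and rats, Gimap1 is needed for mature T and B cells to persist, and Gimap6 has been tied to autophagy through the Atg8-like protein Gabarapl2. Naive T cells express much of the family strongly, and the comparison asks whether T cells in the inflamed cord carry different amounts of these transcripts from T cells in the node.

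None of the 8 Gimap genes passed the test between spinal cord and lymph node, and the intensity ranges of the groups overlapped for all 11 probe sets. The test was limma with Benjamini-Hochberg adjustment over all 18193 genes, and an adjusted p below 0.05 counted as a call. Of all genes 2.54% were called, and 0 of 8 Gimap genes were, with adjusted p from 0.647 to 0.963. Tested probe set by probe set, 1.49% of all 34945 were called and 0 of 11 Gimap probe sets were. At an unadjusted p below 0.05 the Gimap count was also 0, against 14.3% of all genes. Of all genes 18.5% had groups that did not overlap, as did 16.8% of all probe sets, and 0 of 8 Gimap genes did. Changes are given as spinal cord minus lymph node on the log2 scale, with standard error (SE), and folds as spinal cord over lymph node. The 8 changes ran from -0.26 for Gimap1 to 0.60 for Gimap7, with 5 above 0, where 50.7% of all genes were above 0. Their median was 0.13, beside 0.00193 for all genes, and the median size regardless of sign was 0.19, beside 0.18. For 6 of the 8 genes the 95% interval lay within a 2-fold change either way, as it did for 70.5% of all genes, and for Gimap7 and Gimap9 a larger increase lay within the interval.

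A promoter stretch is shown for the 3 genes whose probe set in the gene test spanned the widest range over the arrays, Gimap7 and Gimap9, which read highest on the arrays numbered 3 in both tissues, and Gimap3, which read lowest there. Each is the 250 bases before the transcription start in RefSeq, assembly GRCm38.p6, written 5′ to 3′ on the gene's strand. Capitals mark matches, on either strand, to short motifs of factors known in T cells.
Gimap7 promoter, chr6:48718371-48718620, plus strand: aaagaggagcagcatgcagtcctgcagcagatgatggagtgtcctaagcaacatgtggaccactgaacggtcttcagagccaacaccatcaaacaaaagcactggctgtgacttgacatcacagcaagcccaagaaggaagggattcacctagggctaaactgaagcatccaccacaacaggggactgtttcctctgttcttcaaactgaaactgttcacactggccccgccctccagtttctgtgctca
Gimap9 promoter, chr6:48675885-48676134, plus strand: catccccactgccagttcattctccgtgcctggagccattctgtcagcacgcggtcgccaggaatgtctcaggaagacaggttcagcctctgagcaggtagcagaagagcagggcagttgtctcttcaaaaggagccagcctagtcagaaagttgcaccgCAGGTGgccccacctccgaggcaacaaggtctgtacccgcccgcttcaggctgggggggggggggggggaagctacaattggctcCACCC
Gimap3 promoter, chr6:48770852-48771101, minus strand: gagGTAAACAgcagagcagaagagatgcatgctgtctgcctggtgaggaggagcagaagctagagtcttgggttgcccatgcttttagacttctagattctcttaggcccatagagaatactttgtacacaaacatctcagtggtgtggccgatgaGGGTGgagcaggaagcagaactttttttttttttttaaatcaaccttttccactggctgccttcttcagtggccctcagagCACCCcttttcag
The motifs searched were CACCC (KLF), GTAAACA (FOXO), CACCTG (E2A E-box), CCGGAAG (ETS), TGTGGTT (RUNX), CTTTGAT (TCF/LEF) and TGANTCA (AP-1), and no marked match overlaps another in these 3 stretches. All 8 genes matched the RefSeq promoter table, Gimap8 with 2 start sites, which gave 9 windows. The KLF letters occurred in 6 of the 9 windows, those of Gimap3, Gimap4, Gimap5, Gimap8 and Gimap9, and in 52.0% of all 32851 promoter windows. In the Gimap3 stretch they lay 94 and 13 bases before the start, and in the Gimap9 stretch 5 bases before it. The FOXO letters occurred in 1 Gimap window, that of Gimap3, 247 bases before the start, and in 3.17% of all windows. The E-box letters occurred in 1, that of Gimap9, 90 bases before the start, and in 17.2% of all windows. The Gimap7 stretch held no match to any of the 7 motifs. The ETS, RUNX, TCF/LEF and AP-1 letters were in 0 of the 9 windows and in 6.91%, 4.40%, 3.21% and 6.75% of all windows. A match is a stretch of letters and not a measured binding site.

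The values are array intensities on a linear scale, and the level of a probe set cannot be set against that of another. Signal from every Gimap probe set stood well clear of the low end of the arrays. Member intensities ran from 156 to 16233, while 20% of all values on the arrays were at or below 25 and the array medians were 68 to 71.

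**Figure D1:**
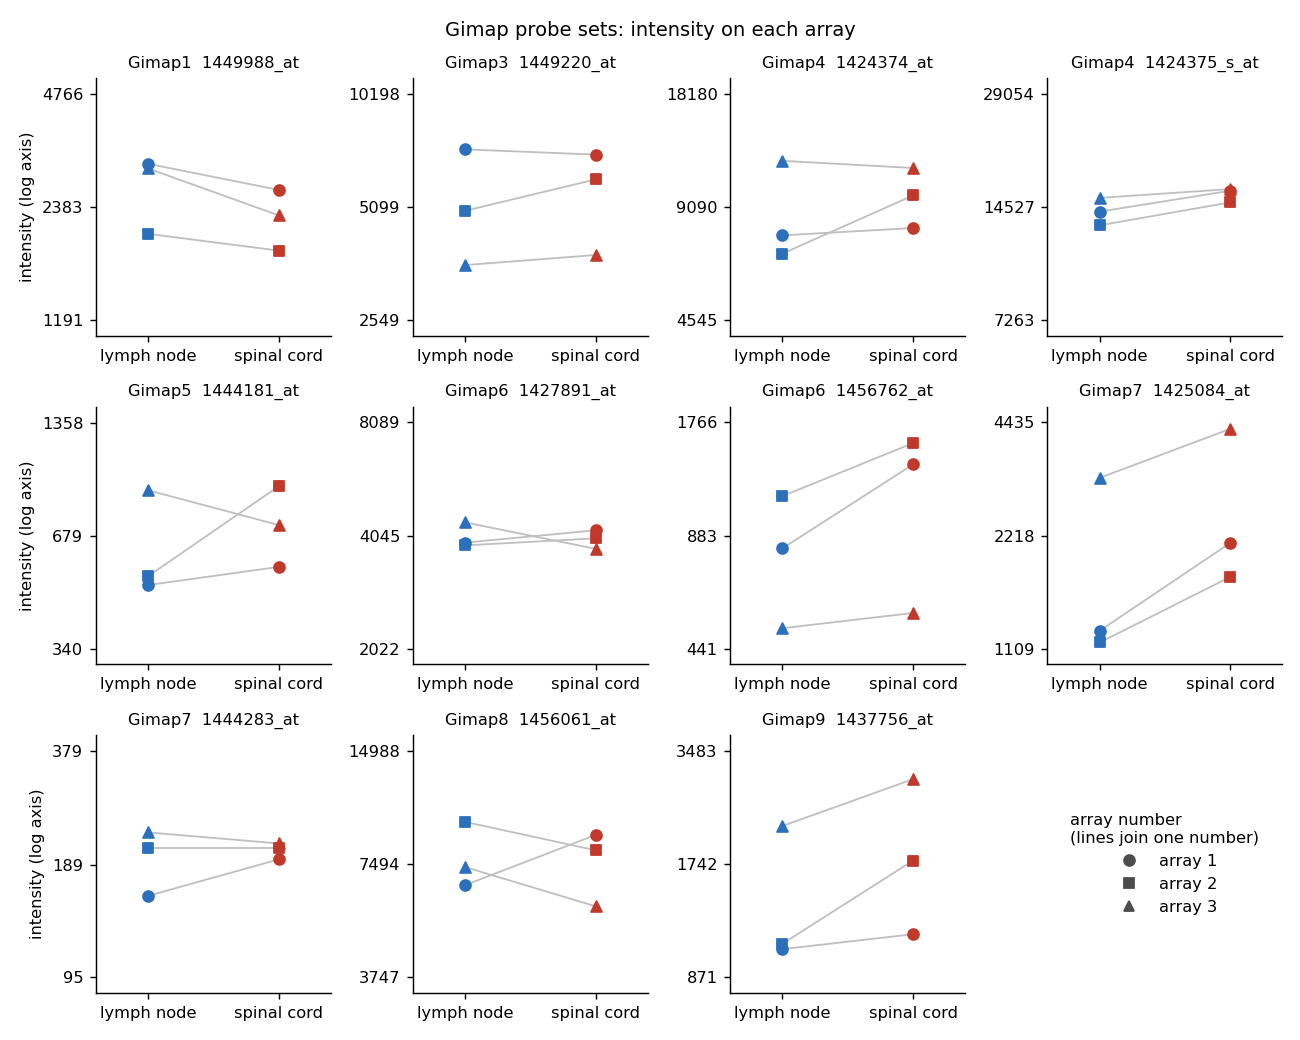
Intensity of the 11 Gimap probe sets on each array, on log axes that all span the same fold range, for lymph node (blue) and spinal cord (red); the symbol gives the array number and grey lines join arrays of one number. The groups overlap in every panel, the Gimap7 and Gimap9 panels read highest on the arrays numbered 3, and the Gimap3 panel reads lowest there.

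Gimap5 and Gimap3 are close relatives, and mouse Gimap3 has been placed on mitochondria. Gimap5 read 561, 919 and 725 on spinal cord arrays 1, 2 and 3 (the cord arrays, always given in this order) against 502, 530 and 897 on lymph node arrays 1, 2 and 3 (the node arrays). Spinal cord array 2 read above every node array and arrays 1 and 3 lay within the node range, and the change was 0.22 ± 0.29 SE (1.16-fold, 95% interval 0.713 to 1.89, adjusted p = 0.822 by limma). That value rested on single arrays, with 0.04 and 0.06 without spinal cord array 2 and lymph node array 1, and 0.40 and 0.48 without spinal cord array 1 and lymph node array 3. Gimap3 read 7035, 6046 and 3805 on the cord arrays against 7266, 4990 and 3578 on the node arrays. Its arrays ordered themselves by number in the same way in both tissues, with number 3 lowest, and the change was 0.11 ± 0.34 SE (1.08-fold, interval 0.611 to 1.90, adjusted p = 0.935 by limma). Whether the probes of either gene also detect the other was not tested.

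Gimap1, the membrane-anchored member on which mature lymphocytes depend, had the most negative value. It read 2649, 1827 and 2267 on the cord arrays against 3108, 2024 and 3021 on the node arrays. Each spinal cord array lay below the lymph node array of its number, with ratios of 0.852, 0.903 and 0.75, while the ranges of the tissues overlapped. The means were 11.12 ± 0.27 and 11.38 ± 0.35 (log2 mean ± SD, n = 3 each), and the change was -0.26 ± 0.23 SE (0.833-fold, interval 0.569 to 1.22, adjusted p = 0.699 by limma; 0.222 with the array number as a block). Leaving out 1 array moved the value between -0.12, without spinal cord array 2, and -0.46, without lymph node array 2.

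Gimap4, a regulator of T cell death whose loss slows apoptosis, had, with Gimap6, the narrowest spread over the arrays among the probe sets used for the genes. The probe set of Gimap4 used for the gene, 1424375_s_at, whose suffix marks probes that can match several transcripts, read 16065, 14963 and 16233 on the cord arrays against 14138, 13000 and 15381 on the node arrays. The 6 values lay within 1.25-fold of each other, and only spinal cord array 2 fell inside the lymph node range. The change was 0.16 ± 0.12 SE (1.11-fold, interval 0.917 to 1.35, adjusted p = 0.647 by limma), and 0.094 without lymph node array 2. The other probe set, 1424374_at, read 8002, 9767 and 11558 on the cord arrays against 7651, 6843 and 12075 on the node arrays, a change of 0.17 ± 0.26. Both Gimap4 probe sets thus had small positive values, and neither was called.

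Gimap6, the member linked to autophagy, read 4180, 3979 and 3730 on the cord arrays against 3876, 3812 and 4386 on the node arrays with probe set 1427891_at. This was the flattest profile of the family, with 1.18-fold between its highest and lowest array and a change of -0.02 ± 0.12 SE (0.986-fold, interval 0.811 to 1.20, adjusted p = 0.963 by limma). A second Gimap6 probe set, 1456762_at, gave another picture. It read 1366, 1556 and 550 on the cord arrays against 817, 1125 and 501 on the node arrays, a 3.11-fold span, with a change of 0.45 ± 0.48 SE (interval on the log2 scale -0.73 to 1.63, adjusted p = 0.801 over probe sets by limma). Spinal cord was higher in each numbered pair of arrays, by 1.67-fold, 1.38-fold and 1.10-fold. The sign for Gimap6 therefore depended on the probe set, and which transcripts the probe sets detect was not tested.

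Gimap8, the largest family member, which carries several GTP-binding domains, read 8966, 8155 and 5787 on the cord arrays against 6595, 9705 and 7357 on the node arrays. The direction differed between array numbers, with ratios of 1.36, 0.840 and 0.787, and the change was -0.05 ± 0.23 SE (0.965-fold, interval 0.659 to 1.41, adjusted p = 0.953 by limma).

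Gimap7 and Gimap9 had the most positive values, and Gimap7 was called once the array number entered the model. Gimap7, whose GTPase activity depends on pairing between Gimap molecules, read 2121, 1722 and 4265 on the cord arrays against 1239, 1153 and 3159 on the node arrays with probe set 1425084_at. Array 3 was the highest in both tissues and lymph node array 3 exceeded spinal cord arrays 1 and 2, yet each spinal cord array exceeded the lymph node array of its number. The ratios were 1.71, 1.49 and 1.35. The change was 0.60 ± 0.50 SE (1.51-fold, interval 0.645 to 3.54) with an adjusted p of 0.696 by limma. With the number as a block the SE was 0.12, the interval on the log2 scale 0.30 to 0.90 and the adjusted p 0.0354.

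That block made Gimap7 the 1 member of 8 that was called, where 11.1% of all genes were called and 3.67% were called higher in spinal cord. Over probe sets the block called 1 of 11 Gimap probe sets, the same one, and 7.65% of all. When both arrays of a number were left out under the block, the log2 change of Gimap7 was 0.51, 0.60 and 0.68 without number 1, 2 and 3, and the adjusted p 0.107, 0.250 and 0.229 by limma. Those fits called 328, 0 and 0 of all 18193 genes, so the missing call without number 2 or 3 is not particular to Gimap7. Without the block, the value moved most when spinal cord array 3 (0.21) or lymph node array 3 (1.06) was left out, and it was 0.39 and 0.34 without the node arrays numbered 1 and 2. The dimmer probe set of Gimap7, 1444283_at, read 195, 209 and 215 on the cord arrays against 156, 209 and 230 on the node arrays. Its numbered ratios were 1.25, 1.00 and 0.935, its change was 0.07 ± 0.17 SE, and it was not called with the block (adjusted p = 0.782 over probe sets by limma), so the 2 probe sets of Gimap7 differed.

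Gimap9 read 1134, 1780 and 2931 on the cord arrays against 1035, 1070 and 2200 on the node arrays. Array 3 was again the highest in both tissues, each spinal cord array lay above the lymph node array of its number, and the ratios were 1.10, 1.66 and 1.33. The change was 0.43 ± 0.44 SE (1.34-fold, interval 0.640 to 2.82, adjusted p = 0.757 by limma; 0.140 with the block). It was 0.76 and 0.08 without the cord arrays numbered 1 and 3, and 0.24, 0.26 and 0.78 without the node arrays numbered 1, 2 and 3.

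**Figure D2:**
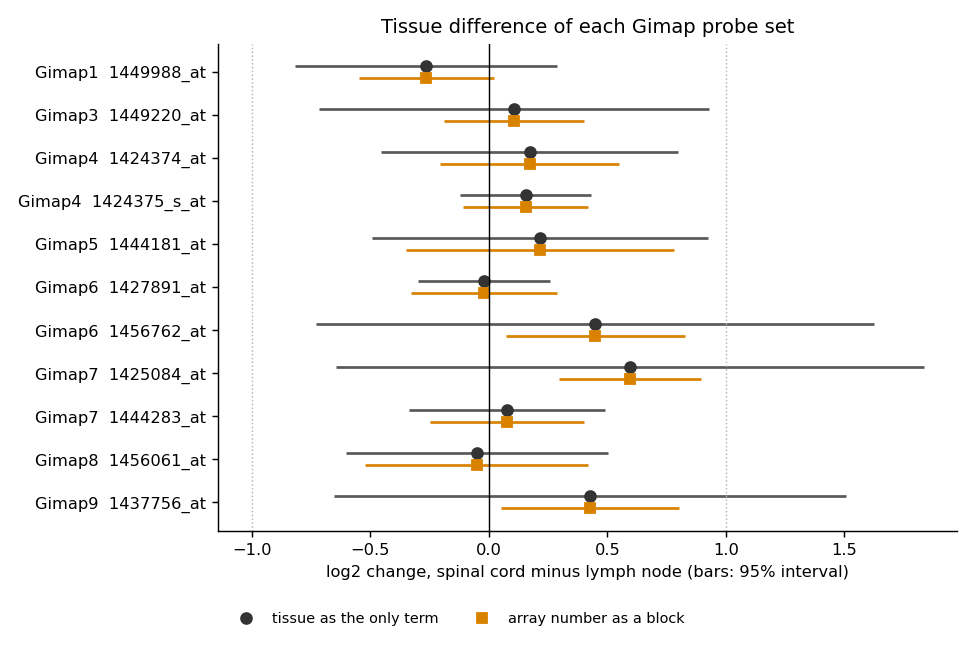
Log2 change between tissues for the 11 Gimap probe sets, spinal cord minus lymph node, with 95% intervals from limma; circles are from the model with tissue as the only term and squares from the model with the array number as a block, and dotted lines mark a 2-fold change. All 11 circle intervals include 0, and with the block the intervals of Gimap7 1425084_at, Gimap9 1437756_at and Gimap6 1456762_at lie above 0, of which Gimap7 alone was called after adjustment.

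Counted over the numbered pairs of arrays, 3 of the 8 genes (Gimap4, Gimap7 and Gimap9) were higher in spinal cord in all 3 pairs and 1 (Gimap1) was lower in all 3. Of all genes 20.2% were higher and 24.7% lower in all 3 pairs. Numbers were treated as pairs because arrays of the same number deviated together from their tissue means. With the block the 95% intervals of all 8 genes lay within a 2-fold change either way. The share of all genes with such intervals was counted only without the block (70.5%), so whether this is particular to the family was not tested.

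For most of the family the array number held more of the spread than the tissue did. For 7 of the 8 genes, Gimap4 being the exception, the sum of squares between array numbers was above that between tissues. The exception held for Gimap4 probe set 1424375_s_at, with 48.9% for the tissue and 44.9% for the number. It did not hold for 1424374_at, with 7.86% and 75.8%. The median share was 63.1% for the number and 11.6% for the tissue, beside 49.0% and 20% over all genes, where 66.7% of genes had the larger share with the number. The number carries 2 of the 5 degrees of freedom and the tissue 1, so a larger share for the number is not in itself a finding. The share of the number was 95.5% for Gimap3, 81.5% for Gimap9 and 79.8% for Gimap7 (1425084_at), and 9.11% for Gimap6 (1427891_at). Gimap3 was lowest on array 3 in each tissue and Gimap7 was highest there, so the probe sets used for the genes did not vary between arrays as a single unit. Probe sets of 1 gene could differ too. Gimap6 1456762_at was lowest on array 3 in each tissue, while 1427891_at was highest on lymph node array 3. Whether such differences lie between genes or between probe sets was not tested.

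**Figure D3:**
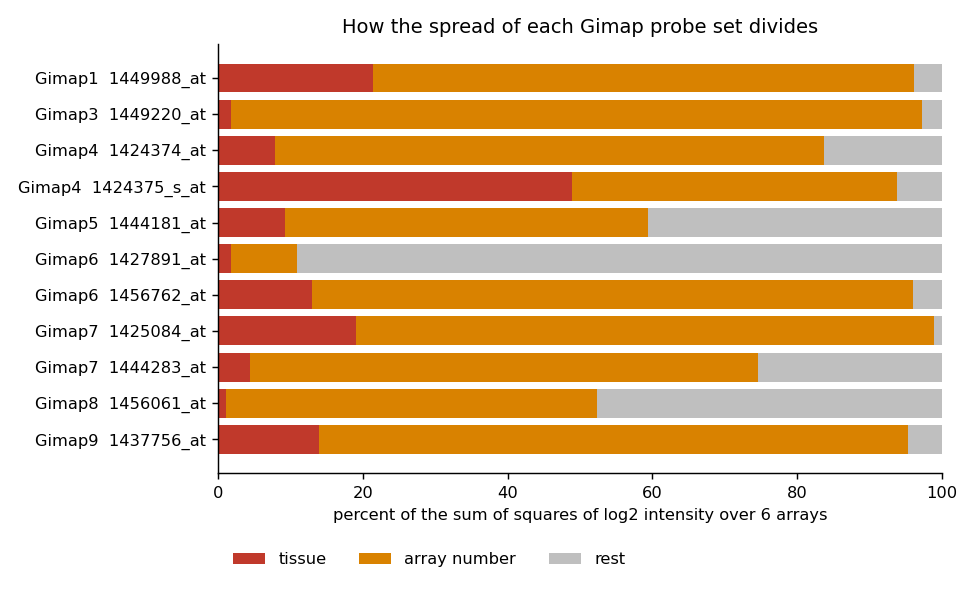
Share of the sum of squares of log2 intensity over the 6 arrays that lies between tissues (red), between array numbers (orange) and in neither (grey), in percent, for each Gimap probe set. In 10 of 11 bars the orange part is longer than the red, the exception being Gimap4 1424375_s_at.

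The distance of each member from the median profile of the family was taken as the root mean square difference of centred log2 values over the 6 arrays. It was 0.0940 for Gimap4, 0.101 for Gimap6, 0.264 for Gimap5, 0.284 for Gimap1, 0.318 for Gimap8, 0.478 for Gimap3, 0.50 for Gimap9 and 0.583 for Gimap7. Of all other genes 1.14% lay closer to that profile than Gimap4 did and 1.74% closer than Gimap6, but 48.5% to 85.8% lay closer than each of the other 6 members. The profile, made from these same members, ran only from -0.232 to 0.225, so a distance to it mostly measures the spread of a gene. The SD over the arrays was 0.088 for Gimap6 and 0.12 for Gimap4, but 0.63 for Gimap9 and 0.75 for Gimap7. These ranks therefore do not show whether members share a pattern. The 5 other genes nearest to that profile were Psmb11, 2410017I17Rik, Prr27, Magel2 and 4833428L15Rik, at distances of 0.0395, 0.0453, 0.0480, 0.0491 and 0.0521. All 5 were nearly flat. Prr27 and Magel2 read 62 to 81, near the array medians of 68 to 71, and the others were dimmer, at 29 to 42. Psmb11, a proteasome subunit gene of the thymic cortex epithelium, read 30 to 39 on the 6 arrays.

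The 8 Gimap genes are neighbours on chromosome 6 in the RefSeq gene table, in the order Gimap8, Gimap9, Gimap4, Gimap6, Gimap7, Gimap1, Gimap5 and Gimap3. Between the outer members the table lists 8 protein-coding genes among 10 genes of any kind, so no other protein-coding gene lies within the cluster. The 5 measured protein-coding genes before it were Atp6v0e2, Lrrc61, Rarres2, Repin1 and Zfp775, and the 5 after it were Tmem176b, Tmem176a, Aoc1, Doxl1 and Gpnmb. None of these 10 was called, where 2.54% of all genes were. With the array number as a block, Repin1, a zinc finger gene (0.91 ± 0.19, adjusted p = 0.0806; 0.00816 with the block by limma), and the adjoining membrane protein genes Tmem176b (0.99 ± 0.52, adjusted p = 0.481; 0.0237) and Tmem176a (0.85 ± 0.50, adjusted p = 0.544; 0.0361) were called. Of all genes 11.1% were called with the block. Tmem176b read 8436, 2916 and 2972 on the cord arrays against 3358, 1375 and 2016 on the node arrays, and so was highest on array 1 in each tissue, unlike Gimap7 and Gimap9.

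**Figure D4:**
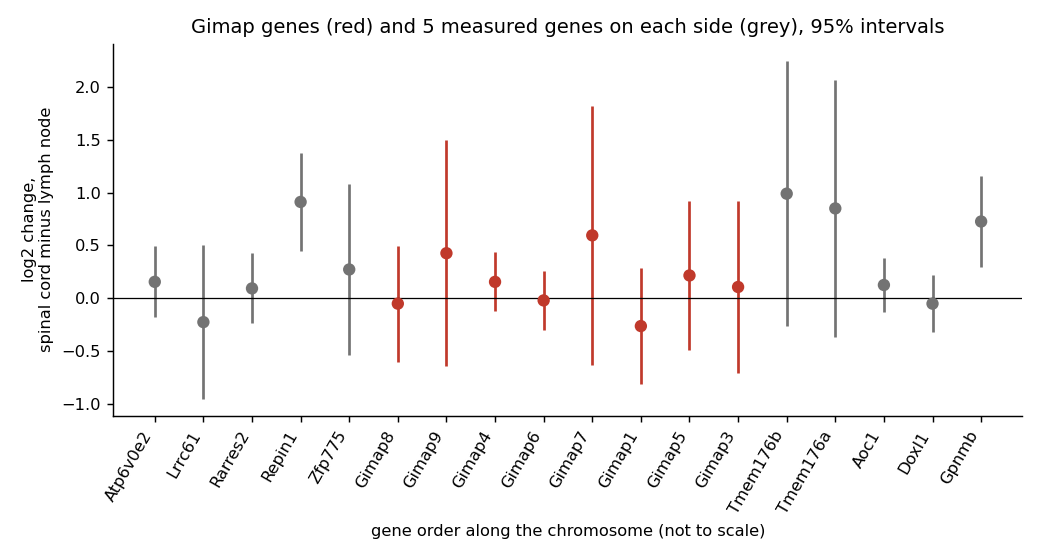
Log2 change between tissues with 95% intervals from limma, spinal cord minus lymph node, for the Gimap genes (red) and the 5 measured protein-coding genes on each side (grey), in chromosome order and not to scale. The red intervals all include 0, and Repin1 and Gpnmb in the flanks have intervals above 0, although neither was called after adjustment.

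Gimap transcripts are usually found together with genes of naive and quiescent T cells, and some of those genes fell in spinal cord. Of 16 measured genes of that list, 3 fell and 0 rose, and the median change was -0.37, where 1.41% of all genes were called lower. Values were above 0 for 4 of the 16. The groups did not overlap for 5 genes that were lower and 2 that were higher, where 18.5% of all genes had such groups. The 2 higher ones were Btg2 (0.69 ± 0.25) and Btg1 (0.18 ± 0.11), and neither was called. Pik3ip1, an inhibitor of phosphoinositide 3-kinase, read 1129, 1131 and 919 on the cord arrays against 3109, 3014 and 2672 on the node arrays, with no overlap (-1.47 ± 0.14 SE, adjusted p = 0.00817 by limma). Ccr7, the lymph node homing receptor, and Dapl1 also fell, with changes of -2.92 ± 0.49 and -2.36 ± 0.40. With the block 7 of 16 were lower, where 7.45% of all genes were, among them Foxp1, a keeper of T cell quiescence (-1.04 ± 0.23, adjusted p = 0.0867; 0.00711 with the block by limma). Il7r, the interleukin-7 receptor gene, had a value of -0.12 ± 0.22 and Klf2 one of -0.93 ± 0.91, and neither was called without the block; with it Klf2 was (adjusted p = 0.0207 by limma). How far the Gimap values differ from this list was not tested.

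In the lists for processes in which Gimap proteins act, single genes passed the test. In the autophagy list 1 of 15 measured genes rose and 0 fell, with a median of 0.11, and with the block 3 were higher. Of all 18193 genes 206 were called higher, and with the block 3.67% were. The one that rose was Map1lc3a, an Atg8-like gene, at 1100, 1297 and 1705 on the cord arrays against 624, 434 and 537 on the node arrays (1.35 ± 0.22 SE, adjusted p = 0.0370 by limma). Gabarapl2, which encodes the Atg8-like protein bound by Gimap6, read 2753, 1928 and 3939 on the cord arrays against 1829, 1121 and 2521 on the node arrays. Each of its spinal cord values was above that of the same number in lymph node, while the ranges overlapped (0.67 ± 0.38 SE, adjusted p = 0.520; 0.0205 with the block by limma). Gabarapl1 had a value of 1.43 ± 0.41 (adjusted p = 0.179; 0.0169 with the block by limma).

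Of the Bcl2 family, which some Gimap proteins have been reported to bind, 1 of 7 measured genes fell and 0 rose, with a median of 0.27. Of all genes 1.41% were called lower, and with the block 7.45% were called lower and 3.67% higher. Bid, a death-promoting member, read 148, 141 and 115 on the cord arrays against 402, 395 and 338 on the node arrays (-1.49 ± 0.15 SE, adjusted p = 0.00857 by limma). The survival gene Bcl2 had a value of 0.41 ± 0.41, and Bcl2l1, which encodes Bcl-xL, one of 0.75 ± 0.33 (adjusted p = 0.395; 0.0209 with the block by limma). Of 11 measured lysosome and mTOR genes 0 were called, with a median of -0.23, and with the block 1, the mTOR inhibitor gene Tsc1, was lower (-0.66 ± 0.17, adjusted p = 0.138; 0.0197 with the block by limma). Gsk3b, a kinase gene connected with Gimap5, had a value of 0.16 ± 0.23.

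Other GTPase families were set beside the Gimap genes. Of 12 measured interferon-inducible GTPase genes 0 were called, with a median of 0.16, and with the block 3 were higher, where 3.67% of all genes were. Gbp6, a guanylate-binding protein gene, read 7394, 5150 and 3969 on the cord arrays against 2686, 2867 and 2536 on the node arrays, so that its groups did not overlap (0.98 ± 0.23, adjusted p = 0.113; 0.0275 with the block by limma). Of 11 measured small GTPase genes 0 were called with or without the block, and 1 had a value above 0, with a median of -0.18.

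**Figure D5:**
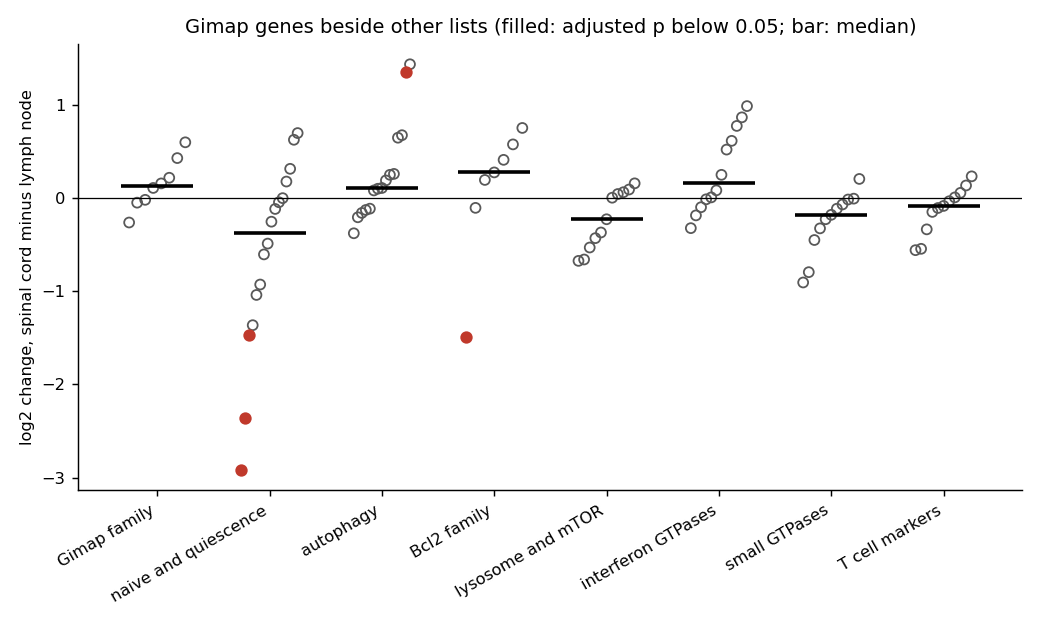
Log2 change between tissues, spinal cord minus lymph node, of each measured gene in the Gimap family and 7 other lists; filled points were called by limma and bars are list medians. The 8 Gimap points lie between -0.26 and 0.60 and none is filled, while 3 quiescence genes, 1 autophagy gene and 1 Bcl2 family gene are filled.

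Markers were used to see which cells the samples could hold, since in bulk RNA fewer cells of a type and less RNA per cell cannot be told apart. T cell genes were bright on all arrays, with Cd3e at 1358 to 2153 on the cord arrays against 1248 to 2124 on the node arrays, and Cd4 at 2763 to 6371 and 2063 to 7669. None of the 11 measured T cell genes was called with or without the block, 4 had values above 0, the median was -0.09, and their summed intensity was 58817 to 68484 on the cord arrays against 59767 to 80056 on the node arrays. The lowest adjusted p of the list was that of Cd247, a signalling chain of the T cell receptor, which read 4085, 3345 and 3339 on the cord arrays against 5083, 5005 and 5585 on the node arrays, with no overlap (-0.55 ± 0.13, adjusted p = 0.113; 0.0537 with the block by limma). Cd5 had a value of -0.56 ± 0.36 and was likewise lower in all 3 numbered pairs. With each array centred on the mean of the T cell list, a scaling chosen after seeing the data that moved the median of all genes to 0.13, 0 of 8 Gimap genes were called, and the value was 0.72 for Gimap7 and 0.08 for Gimap8.

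Gimap transcripts are also made by endothelial cells, natural killer cells and B cells. For the counts that follow, 206 of all 18193 genes were called higher and 1.41% lower. With the block these shares were 3.67% higher and 7.45% lower. Of 12 endothelial genes 0 were called, the median was 0.02, and the summed intensity was 862 to 893 on the cord arrays against 721 to 1034 on the node arrays. The endothelial genes Cdh5, Vwf and Cldn5 read 18 to 42 on all arrays, near the low end, while other genes of the list read above the array medians, Esam at 79 to 103, Eng at 101 to 119, Egfl7 at 145 to 201 and Pecam1 at 93 to 356. Of 9 B cell genes Cd22 fell (-2.67 ± 0.13), the 1 member called, and the median was -0.02. Values were above 0 for 4 of the 9, among them Pax5 (0.28 ± 0.16) and Cr2 (0.23 ± 0.17). The sum was 415 to 447 on the cord arrays against 1006 to 1064 on the node arrays, where Cd22 alone read 620 to 750. With the block 2 were lower, the other being Cd79b, at 43, 29 and 39 on the cord arrays against 117, 79 and 57 on the node arrays (-1.15 ± 0.29, adjusted p = 0.134; 0.0267 with the block by limma), while Cd79a and Ms4a1 read 27 to 63. Of 6 natural killer genes Klrk1 and Klrd1 rose, and the sum was 2981 to 4296 on the cord arrays against 770 to 1204 on the node arrays, with Ncr1 at 50 to 64. With the block 3 were higher, the third being the granzyme gene Gzma, at 309, 806 and 1321 on the cord arrays against 83, 201 and 247 on the node arrays (2.11 ± 0.64, adjusted p = 0.198; 0.00188 with the block by limma). In the list of 5 CD8 T cell genes, Cd8a read 165 to 225 on the cord arrays against 121 to 186 on the node arrays. Cd8b1 read 116 to 124 against 118 to 134, and neither was called with or without the block. Klrd1 again was the 1 member called. The sum was 2487 to 4651 and 1001 to 4002, on the cord arrays mostly Klrd1, at 1776 to 2572. With the block the transcription factor gene Eomes was also called, in the other direction, at 52, 93 and 306 on the cord arrays against 113, 406 and 1185 on the node arrays (-1.73 ± 1.00, adjusted p = 0.534; 0.00898 with the block by limma). The part of these cells in the Gimap values was not tested.

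Of 17 macrophage and microglia genes 16 had positive values (median 1.56), 0 were called and 8 were higher with the block, where 3.67% of all genes were. The groups did not overlap for 14 genes that were higher and 1, Ctss, that was lower, where 18.5% of all genes had such groups. The sum was 11955 to 19127 on the cord arrays against 14315 to 15270 on the node arrays, most of it Ctss. Ctss read 9965 to 13155 on the cord arrays against 13529 to 14454 on the node arrays, so the sum says little about the other genes. Lyz2 read 245, 1771 and 563 on the cord arrays against 78 to 81 on the node arrays. Of 8 neutrophil genes 0 were called and all 8 had positive values (median 1.06), where 50.7% of all genes did. Their sum was 471, 2187 and 759 on the cord arrays against 364 to 513 on the node arrays. It was thus highest on spinal cord array 2, and spinal cord array 1 lay within the node range. Of 7 dendritic cell genes all 7 had positive values, and the groups did not overlap for 4, all higher. Itgax was the 1 that rose, and the sum of the list was 680 to 772 on the cord arrays against 469 to 531 on the node arrays. Of 11 neural genes 0 were called, with a sum of 3902 to 6492 and 4248 to 6585. Most of the neural sum was Mbp, at 3397 to 5981 on the cord arrays against 3798 to 6110 on the node arrays. All other neural genes of the list read 13 to 102 on the 6 arrays, so the neural sum mostly follows Mbp. Without spinal cord array 2, which read highest for Lyz2, 0 of 8 Gimap genes were called, as with all arrays, and Gimap7 had a value of 0.86. That fit called 81 of all 18193 genes, and spinal cord arrays 1 and 3 also read above the node arrays for Lyz2. It therefore cannot show what part myeloid cells have in the Gimap values, which was not tested. An exact permutation test over 3 against 3 arrays cannot give a two-sided p below 0.1 for any gene.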

How the data were processed

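The deposited table holds array intensity values on a linear scale as whole numbers from 9 to 39505, made by the authors with RMA per the submitters' processing notes (version not given in the sources used here). RMA had already corrected background, normalized the arrays and summarised probes, and log2 was taken from the deposited intensities before any test. Per the labels' protocols, label was made in 2 amplification cycles from 1 ng of RNA, which can add variation between arrays. Names came from the platform annotation. Of 45101 probe sets, 34945 had 1 symbol and were not controls, 932 had several, 9160 had none and 64 were controls. By gene identifier 34741 matched RefSeq (GRCm38.p6), and 0 symbols changed. No pair of arrays held the same values: at least 93.55% of probe sets differed.

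The brightest probe set of a gene (by mean log2 over 6 arrays) was tested with limma 3.58.1 (lmFit, eBayes, two-sided) in R 4.3.3, tissue being the only term, and all 34945 probe sets were also tested as they stand. Adjusted p-values are Benjamini-Hochberg over the whole table. The fit was tested on simulated data, with 50 changed genes of each size. It called 2% of changes of 0.5 on the log2 scale, 30% of changes of 1, 68% of changes of 2 and 84% of changes of 3. Most changes of 1 or less were therefore missed. The simulated noise was independent between arrays, unlike the deviations shared by arrays of one number in these data. The precision is limited by the number of arrays. The other work used Python 3.11.15, pandas 2.3.3, numpy 2.4.6 and matplotlib 3.10.9.

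Deviations from the tissue means correlated at 0.576, 0.509 and 0.777 across genes between arrays of one number, so arrays of one number were treated as pairs, on the strength of these data alone and not of the labels. The number as a block was an alternative, as were leaving out each array, array weights, quantile normalization, centring on the median, leaving out genes below the 40th percentile of the means, raising values to the 20th percentile (25), a variance trend, an adjusted p below 0.01 and other choices of probe set.

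The members and lists were chosen with earlier results of these data known. Text names every member, up to 4 genes of each list by adjusted p, 5 flanking genes on each side and the 5 nearest profiles. Named outside that rule, after their values were seen, were Il7r, Klf2, Btg1, Btg2, Bcl2, Gsk3b, Cd4, Cdh5, Vwf, Cldn5, Egfl7, Pecam1, Cd79a, Ms4a1, Ctss and Mbp.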

Additional observations from a re-analysis of the deposited data

How the results depend on the processing

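Neither count of called members changed under the alternatives except with the replicate block, where 1 Gimap gene and 1 Gimap probe set were called. Leaving out 1 array at a time gave 0 genes and 0 probe sets in every fit, while the calls over all genes ran from 81 to 312 in those fits. Over all genes the block gave 2023 calls in place of 463 and, over probe sets, 2672 in place of 519; the floor gave 161 and 137, and an adjusted p below 0.01 gave 103 and 61. In addition to the Gimap7 call under the block, 135 of 152 member values kept their sign and their side of the threshold, and 16 changed sign, none of them called, as follows. Gimap3 was -0.08 without spinal cord array 1 and -0.14 without lymph node array 3, with a range of -0.14 to 0.37 over the arrays left out, and Gimap5 was -0.073 under the block without both arrays numbered 2. Gimap6 was 0.022 without spinal cord array 3 and 0.042 without lymph node array 3, with a range of -0.060 to 0.042, 0.088 with quantile normalization, 0.21 with the mean of its probe sets, 0.45 with the probe set of largest variance, 0.11 when centred on the T cell list and 0.085 under the block without both arrays numbered 3. Gimap8 was 0.14 without spinal cord array 3, 0.11 without lymph node array 2, with a range of -0.18 to 0.14, 0.052 with quantile normalization, 0.076 when centred on the T cell list, and 0.048 and 0.096 under the block without both arrays numbered 2 and 3. The cause was not tested. The 2 settings that centre on the T cell list or leave out both arrays of a number were chosen after seeing the data. Apart from Gimap7, the block changed no call of a member. Signal over background could not be judged array by array.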
